A study of Rattus norvegicus with 6 samples.

Results

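Complement transcripts were examined in the spleens of rats with portal hypertension. The genes were 37 components, receptors and regulators of the complement system, listed by name, and 31 of them were measured by a transcript cluster (the probe set of an annotated transcript) that carries this 1 symbol, among 18166 genes measured in the same way. C2, C4b, C5ar1, C5ar2, Cfi and Cd59 had no such cluster and were not analysed under these names. The operated animals were 3 rats, male and of the Sprague-Dawley strain, that underwent PPVL (partial portal vein ligation), in which a suture leaves a calibrated narrowing of the portal vein. The controls were 3 male rats of the same strain that had sham surgery, with the vein exposed but not tied. Both groups thus had abdominal surgery and anesthesia, and spleens were taken 10 days later. PPVL raises portal pressure without cirrhosis and so models the prehepatic form of portal hypertension only. Whole-spleen RNA of each rat was hybridised to 1 Affymetrix array, and values are log2 signals after Robust Multiarray Average (RMA) normalization. A log2 fold change is the PPVL mean minus the sham mean, so that 1 stands for a doubling. Signals of different genes come from different probes, so that levels are compared between rats and not between genes.

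Complement is a cascade of plasma proteases and binding proteins that coats microbes, antibody complexes and dying cells. C1q, with its proteases C1r and C1s, starts the classical pathway on bound antibody. Mannose-binding lectins and ficolins start the lectin pathway on sugars through the MASP proteases, and the alternative pathway amplifies C3 cleavage with factor B, factor D and properdin. All arms meet at C3 and can end in the membrane attack complex, which is built from the late components C5 to C9. The liver makes most of the plasma proteins. In the spleen, macrophages make C1q, B cells and follicular dendritic cells carry the complement receptor Cr2, and stromal cells can make C1r, C1s, C3 and the C1 inhibitor.

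The arrays had medians between 6.22 and 6.33. Splenic cell markers were present in every rat. Cd79a of the B cell receptor complex was at 10.11 to 10.37 in PPVL spleens and at 10.12 to 10.23 in sham spleens, and the macrophage marker Csf1r was at 11.47 to 11.53 in PPVL spleens and at 11.37 to 11.44 in sham spleens. In each group 1 array stood apart in transcripts of other tissues. Of 19 measured exocrine pancreas genes, 18 were highest in PPVL rat 1, where their mean log2 level was 9.83, against 5.60 and 5.53 in the other PPVL rats and 5.48 to 5.58 in sham spleens. Of 12 measured hepatocyte genes, 11 were highest in sham rat 2. Their mean was 5.45 to 5.62 in PPVL spleens, against 6.28 in sham rat 2 and 5.48 and 5.59 in sham rats 1 and 3. Alb, which encodes albumin, was at 7.14, 7.24 and 7.85 in PPVL rats 1 to 3, against 6.37, 10.28 and 7.80 in sham rats 1 to 3. Of 10 mesothelial genes, 7 were highest in sham rat 2, and their mean was 6.43 to 6.77 in PPVL spleens, against 7.41 in sham rat 2 and 6.36 and 6.68 in sham rats 1 and 3. Values without these rats are given for genes whose values moved with them.

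Complement transcripts differed little between PPVL and sham spleens. A gene was called at a raw limma p below 0.05, as the study's methods set it, and by this rule 3 of the 31 measured genes were higher in PPVL spleens, where 2.69% of all genes were. None was lower in the same limma fit, where 1.55% of all genes were. The 3 genes were Masp1, a protease of the lectin pathway, and C7 and C8g, which belong to the terminal pathway. After Benjamini-Hochberg adjustment over all 36685 transcript clusters in limma, 0 of the 31 genes and 0% of all genes stayed below 0.05, and no complement gene had an adjusted p smaller than 0.973. All PPVL rats exceeded all sham rats for 4 of the 31 genes, Masp1, C7, C8g and C4bpb (6.64% of all genes), and below for 0 (4.7% of all genes). The 31 log2 fold changes ran from -0.29 to 0.42 with a median of 0.0026, and the median over all genes was 0.0048. There were 16 positive and 15 negative values. In whole spleen, a different number of cells of a type and a different amount of RNA per cell cannot be told apart.

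The intervals show how large a change these arrays could have missed. For 21 of the 31 genes (67.7%, against 83% of all genes) the 95% interval of the log2 fold change lay within 0.5 in either direction, which corresponds to 1.41-fold. For the other 10 the interval reached beyond that size. The widest interval was that of C6, from -0.88 to 1.03, followed by that of C3, from -0.59 to 0.98. Both genes varied more among sham rats than among PPVL rats.

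**Figure D1:**
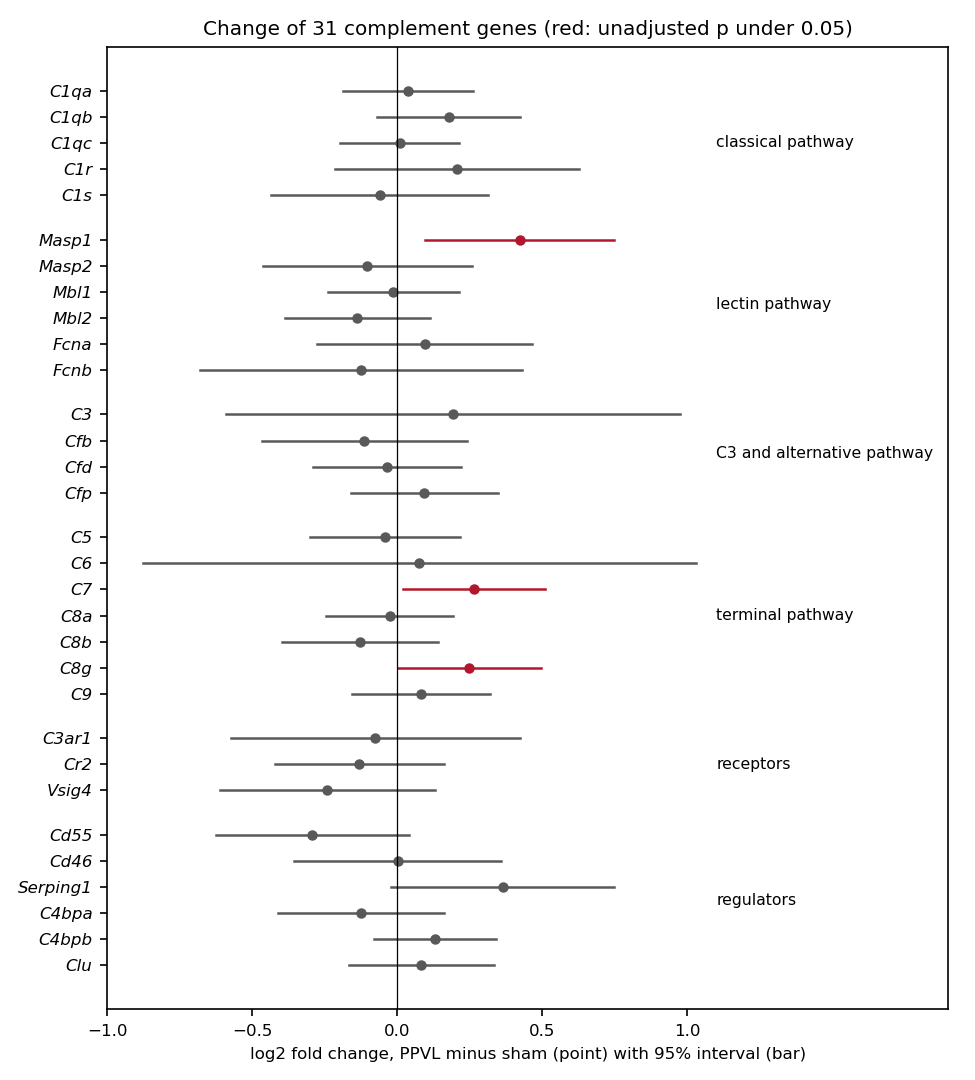
Log2 fold change of each of the 31 complement genes, PPVL minus sham (point, x axis, log2 units), with its 95% interval from limma (bar), grouped by arm down the page. Masp1, C7 and C8g (red) are the genes at an unadjusted p under 0.05, with values of 0.42, 0.27 and 0.25, and the intervals of C6 and C3 are the widest.

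Upstream sequences are shown for 5 of the genes. They are the 250 bases before the annotated start, 5′ to 3′ in the direction of the gene, from RefSeq on the rat build GRCr8. In this set of sequences 22 of the 31 genes had an entry. C7, C8g and Serping1 had none, so the choice was limited to the other genes. Masp1 is shown because it had the largest log2 fold change, and C1r, C3 and C6 because sham rat 2 stood apart for them, as it did for Serping1. C1qa, which did not pass the threshold, is shown as a chain of C1q. Capitals mark a match to 1 of 5 short motifs searched on both strands. These were the STAT motif GAS (TTCNNNGAA), the core of the interferon-stimulated response element (GAAANNGAA), the AP-1 motif (TGANTCA), a C/EBP motif (TTGCNNAA) and an NF-kappaB motif (GGGANTTTC).
Masp1, chr11:90839472-90839721, plus strand: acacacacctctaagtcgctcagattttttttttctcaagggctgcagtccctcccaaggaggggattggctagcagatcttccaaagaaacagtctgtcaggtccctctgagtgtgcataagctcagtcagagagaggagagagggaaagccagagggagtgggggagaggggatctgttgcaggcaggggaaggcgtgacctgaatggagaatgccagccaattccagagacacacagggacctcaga
C1r, chr4:159098763-159099012, plus strand: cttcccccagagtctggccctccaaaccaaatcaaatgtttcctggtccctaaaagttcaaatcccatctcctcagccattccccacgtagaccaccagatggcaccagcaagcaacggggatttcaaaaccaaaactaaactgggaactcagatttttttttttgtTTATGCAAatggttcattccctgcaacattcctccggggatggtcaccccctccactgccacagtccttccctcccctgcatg
C3, chr9:2201340-2201589, minus strand: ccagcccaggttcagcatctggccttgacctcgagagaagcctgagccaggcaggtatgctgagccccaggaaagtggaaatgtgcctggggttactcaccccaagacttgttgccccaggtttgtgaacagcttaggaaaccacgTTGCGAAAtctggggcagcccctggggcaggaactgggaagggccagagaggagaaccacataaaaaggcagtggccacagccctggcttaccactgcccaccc
C6, chr2:55573383-55573632, plus strand: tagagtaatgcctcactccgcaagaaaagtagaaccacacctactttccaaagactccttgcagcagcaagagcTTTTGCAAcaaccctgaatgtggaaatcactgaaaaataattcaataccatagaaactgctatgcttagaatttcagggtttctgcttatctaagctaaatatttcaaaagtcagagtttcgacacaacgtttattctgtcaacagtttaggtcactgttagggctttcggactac
C1qa, chr5:154419934-154420183, minus strand: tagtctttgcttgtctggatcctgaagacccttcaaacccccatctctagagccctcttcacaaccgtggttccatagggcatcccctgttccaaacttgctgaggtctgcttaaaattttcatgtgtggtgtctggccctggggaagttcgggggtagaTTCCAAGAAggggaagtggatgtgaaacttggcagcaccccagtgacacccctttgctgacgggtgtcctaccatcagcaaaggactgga

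The windows of C1r, C3 and C6 each held 1 match to the C/EBP motif, beginning 83, 104 and 176 bases before the start. C/EBP factors are known for their role at acute phase genes of the liver. Among the 22 windows, 7 held this motif (31.8%), those of C6, Fcnb, C1r, C8b, C8a, C3 and C4bpa, against 9.22% of all 33469 windows. GAS was found in 4 of the 22 (18.2%, against 7.67% of all windows), namely C8a, C1qa, C4bpb and Vsig4, and its match in C1qa began 90 bases before the start. AP-1 was found in 3, C3ar1, Cd46 and Cfp (13.6%, against 6.34%). The interferon-stimulated and NF-kappaB letters were in 0 of the 22 and in 8.12% and 0.953% of all windows. The Masp1 window held 0 matches. These matches are a description of letters and were not tested against the expression values.

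Several of the genes lie side by side in the RefSeq annotation. C1qb, C1qc and C1qa are direct neighbours on chromosome 5, C8b and C8a likewise on chromosome 5, and C1r and C1s on chromosome 4. On chromosome 13, Cd55, C4bpa and C4bpb are separated by 1 coding gene each, as are Cd46 and Cr2, and on chromosome 2 C6 and C7 are separated by 1. Neighbours could differ in the sign of their log2 fold change, which was 0.20 for C1r and -0.06 for C1s, and -0.12 for C4bpa and 0.13 for C4bpb.

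The classical pathway was measured by 5 genes, of which 0 passed the threshold. C1qa, C1qb and C1qc encode the chains of C1q, the recognition molecule of the pathway. C1qa was at 11.83, 11.75 and 11.60 in PPVL spleens and at 11.62, 11.75 and 11.70 in sham spleens. C1qb was at 11.57, 11.70 and 11.50 in PPVL spleens and at 11.39, 11.55 and 11.29 in sham spleens. C1qc was at 11.08, 11.21 and 11.11 in PPVL spleens and at 11.13, 11.20 and 11.06 in sham spleens. The groups overlapped for all 3 chains. The log2 fold changes were 0.04 (95% interval -0.19 to 0.26) for C1qa, 0.18 (-0.07 to 0.42) for C1qb and 0.01 (-0.20 to 0.21) for C1qc. Of 15 macrophage markers in the same RNA, 3 rose, which were Siglec1, Timd4 and Mertk, and 0 fell (2.69% and 1.55% of all genes). The median log2 fold change of the 15 was 0.12. Their mean log2 level was 9.95 to 10.07 in PPVL spleens and 9.82 to 9.91 in sham spleens.

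C1r and C1s, the proteases that C1q activates, also had overlapping groups. C1r was at 11.62, 11.54 and 11.26 in PPVL spleens and at 11.25, 11.59 and 10.97 in sham spleens, a log2 fold change of 0.20 (95% interval -0.22 to 0.63). It was 0.37 without sham rat 2, 0.13 without PPVL rat 1 and 0.06 without sham rat 3, and none of these passed. C1s was at 10.34, 9.96 and 9.90 in PPVL spleens and at 9.90, 10.30 and 10.19 in sham spleens. In both genes the highest sham value was that of sham rat 2, and the highest value of all was that of PPVL rat 1.

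The lectin pathway held the largest difference. Masp1 encodes a protease that activates Masp2, and the gene gives further splice forms that these values do not separate. It was at 6.54, 6.77 and 6.34 in PPVL spleens and at 6.25, 6.16 and 5.96 in sham spleens. All 3 PPVL rats lay above all 3 sham rats, with a gap between PPVL rat 3 and sham rat 1 that was smaller than the SD of either group (0.21 in PPVL and 0.15 in sham spleens). The log2 fold change was 0.42 (standard error 0.14), or 1.34-fold, with an unadjusted p = 0.018 and an adjusted p = 0.973 from limma. The sham mean of 6.13 lay below the median of all clusters, 6.27, and whether it stood above background is not known. The log2 fold change was 0.31 without PPVL rat 2 and 0.34 without sham rat 3, and neither value passed the threshold.

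The other 5 genes of the lectin pathway did not pass. Masp2, which cleaves C4 and C2, had a log2 fold change of -0.10, and the mannose-binding lectins Mbl1 and Mbl2 had -0.01 and -0.14. These 3 genes had mean signals below that median, as 11 of the 31 complement genes did, with the same limit. Fcna, a ficolin of macrophages in mice, was at 11.54, 11.88 and 11.52 in PPVL spleens and at 11.70, 11.67 and 11.28 in sham spleens. Fcnb, a ficolin of myeloid cells in mice, was at 9.53, 10.24 and 9.30 in PPVL spleens and at 9.70, 9.87 and 9.87 in sham spleens. For Fcnb, PPVL rat 2 lay above and the other PPVL rats below all sham rats.

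PPVL rat 2 was the highest PPVL rat for 17 of the 31 genes (54.8%, against 35% of all genes). Its log2 signal exceeded the mean of the other PPVL rats by 0.83 for Fcnb, 0.73 for C3ar1 and 0.38 for Vsig4. The mean log2 level of 14 neutrophil and monocyte markers, Fcnb among them, was 8.99 in this rat, against 8.10 and 8.35 in the other PPVL rats and 8.0 to 8.4 in sham spleens. Without PPVL rat 2, Fcnb was lower in PPVL spleens, at a log2 fold change of -0.40, and so were C3ar1 at -0.32 and Vsig4 at -0.37. All 3 passed the threshold in that limma fit, in which 2.77% of all genes were lower. Vsig4 rested on PPVL rat 1 too, whose value of 5.38 was the lowest, and was at -0.07 without that rat and at -0.04 without both PPVL rat 1 and sham rat 2. The part of neutrophils and monocytes in these values was not tested.

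C3 and the alternative pathway were measured by 4 genes, and 0 passed. C3, the component on which all pathways converge, was at 8.87, 9.34 and 9.10 in PPVL spleens and at 8.71, 9.68 and 8.35 in sham spleens. All PPVL values lay between the lowest and the highest sham value. The SD was 0.24 in PPVL spleens and 0.69 in sham spleens, and the log2 fold change was 0.19 (standard error 0.33). Cfb, or factor B, had a log2 fold change of -0.11, and its highest value too was that of sham rat 2. Cfp, which encodes properdin, the stabiliser of the alternative C3 convertase, had 0.09. Cfd, or factor D, is also known as adipsin, a product of fat cells. It was at 10.26, 10.46 and 10.25 in PPVL spleens and at 10.48, 10.36 and 10.23 in sham spleens, a log2 fold change of -0.03 (95% interval -0.29 to 0.22). Of 10 adipocyte markers measured beside it, 2 rose, which were the hormone gene Adipoq and Cidea, and 0 fell (2.69% and 1.55% of all genes).

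The terminal pathway held the other calls. C7, which takes part in anchoring the nascent membrane attack complex in the membrane, was at 11.57, 11.41 and 11.28 in PPVL spleens and at 11.08, 11.20 and 11.18 in sham spleens. All PPVL rats lay above all sham rats, the lowest of them by less than the PPVL SD of 0.15. The log2 fold change was 0.27 (standard error 0.10), or 1.2-fold, with an unadjusted p = 0.037 and an adjusted p = 0.973 from limma. C7 did not pass in 5 of the 6 fits that left out 1 rat each, all except the one without PPVL rat 3, at log2 fold changes of 0.19 to 0.29.

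C8g encodes the gamma chain of C8, a lipocalin. It was at 8.01, 7.78 and 8.02 in PPVL spleens and at 7.59, 7.76 and 7.71 in sham spleens. The groups did not overlap, but PPVL rat 2 and sham rat 2 nearly touched. The log2 fold change was 0.25 (standard error 0.10), or 1.19-fold, with an unadjusted p = 0.048 and an adjusted p = 0.973 from limma. C8g did not pass in 5 of the 6 fits that left out 1 rat each, all except the one without PPVL rat 2, at 0.20 to 0.28.

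The partner chains of C8g, C8a and C8b, had log2 fold changes of -0.03 (95% interval -0.24 to 0.19) and -0.13 (-0.40 to 0.14) and did not pass. C5, the precursor of the anaphylatoxin C5a and of the first part of the complex, had -0.04, and C9, which forms the pore, had 0.08. C6, which binds the larger product of C5 cleavage, was at 5.75, 5.32 and 5.43 in PPVL spleens and at 4.88, 6.42 and 4.97 in sham spleens. Its PPVL values lay close together, while sham rat 2 lay above and the other sham rats below all of them. The log2 fold change was 0.08 (standard error 0.40). The mean signals of C5, C6, C8a, C8b and C9 lay below the median of all clusters, and whether they stood above background is not known.

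The 3 measured receptors had log2 fold changes below 0, and 0 passed. Cr2, the receptor for C3 fragments on B cells and follicular dendritic cells, was at 11.62, 11.47 and 11.75 in PPVL spleens and at 11.58, 11.73 and 11.92 in sham spleens, a log2 fold change of -0.13 (95% interval -0.42 to 0.16). Of 6 measured B cell markers 0 passed, with a median log2 fold change of 0.10. Of 7 follicular dendritic cell markers, Cr2 among them, 0 passed. Their median log2 fold change was 0.01, with 4 positive and 3 negative values. For 2 of the 7, Cxcl13 at -0.17 and Fdcsp at -0.13, all PPVL rats lay below all sham rats (4.7% of all genes). The mean signal of Fdcsp, 4.46, lay below the median of all clusters. The part of B cells and follicular dendritic cells in the Cr2 values was not tested. C3ar1, the receptor of the anaphylatoxin C3a, was at 7.54, 8.17 and 7.35 in PPVL spleens and at 7.81, 7.84 and 7.64 in sham spleens. As for Fcnb, PPVL rat 2 lay above and the other PPVL rats below all sham rats. Vsig4, a receptor of tissue macrophages for C3 fragments, was at 5.38, 5.97 and 5.80 in PPVL spleens and at 5.90, 6.01 and 5.96 in sham spleens. Its log2 fold change was -0.24 (95% interval -0.61 to 0.13). The mean signal of Vsig4, 5.84, lay below the median of all clusters, and whether it stood above background is not known.

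Of the 6 measured regulators, 0 passed the threshold in the fit of all rats. Serping1, the C1 inhibitor, blocks C1r, C1s and the MASP proteases. It was at 10.09, 10.03 and 10.02 in PPVL spleens and at 9.47, 10.05 and 9.51 in sham spleens. Sham rat 2 lay among the nearly equal PPVL values, and the other sham rats lay below them. The SD was 0.036 in PPVL spleens and 0.32 in sham spleens. The log2 fold change was 0.36 (95% interval -0.02 to 0.75), with an unadjusted p = 0.060 and an adjusted p = 0.973 from limma.

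Cd55, the decay-accelerating factor of cell membranes, was at 8.42, 8.69 and 8.79 in PPVL spleens and at 9.02, 9.05 and 8.71 in sham spleens. Its log2 fold change was the most negative of the 31, -0.29 (95% interval -0.62 to 0.04). It was -0.40 and past the threshold without sham rat 3, the sham rat that overlapped with the PPVL rats. It was -0.19 without PPVL rat 1, which had the lowest value, and -0.13 without both PPVL rat 1 and sham rat 2, and neither passed. Cd46, the membrane cofactor protein, had a log2 fold change of 0.0026. C4bpa and C4bpb, the chains of the C4b-binding protein, did not pass, and the groups did not overlap for C4bpb, at mean signals of 4.06 in PPVL spleens and 3.93 in sham spleens. The mean signals of C4bpa and C4bpb lay below the median of all clusters, and whether they stood above background is not known. Clu, or clusterin, which can keep the membrane attack complex from inserting, was at 12.29, 12.18 and 12.27 in PPVL spleens and at 12.14, 12.33 and 12.02 in sham spleens, a log2 fold change of 0.08, or 0.17 without sham rat 2.

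**Figure D2:**
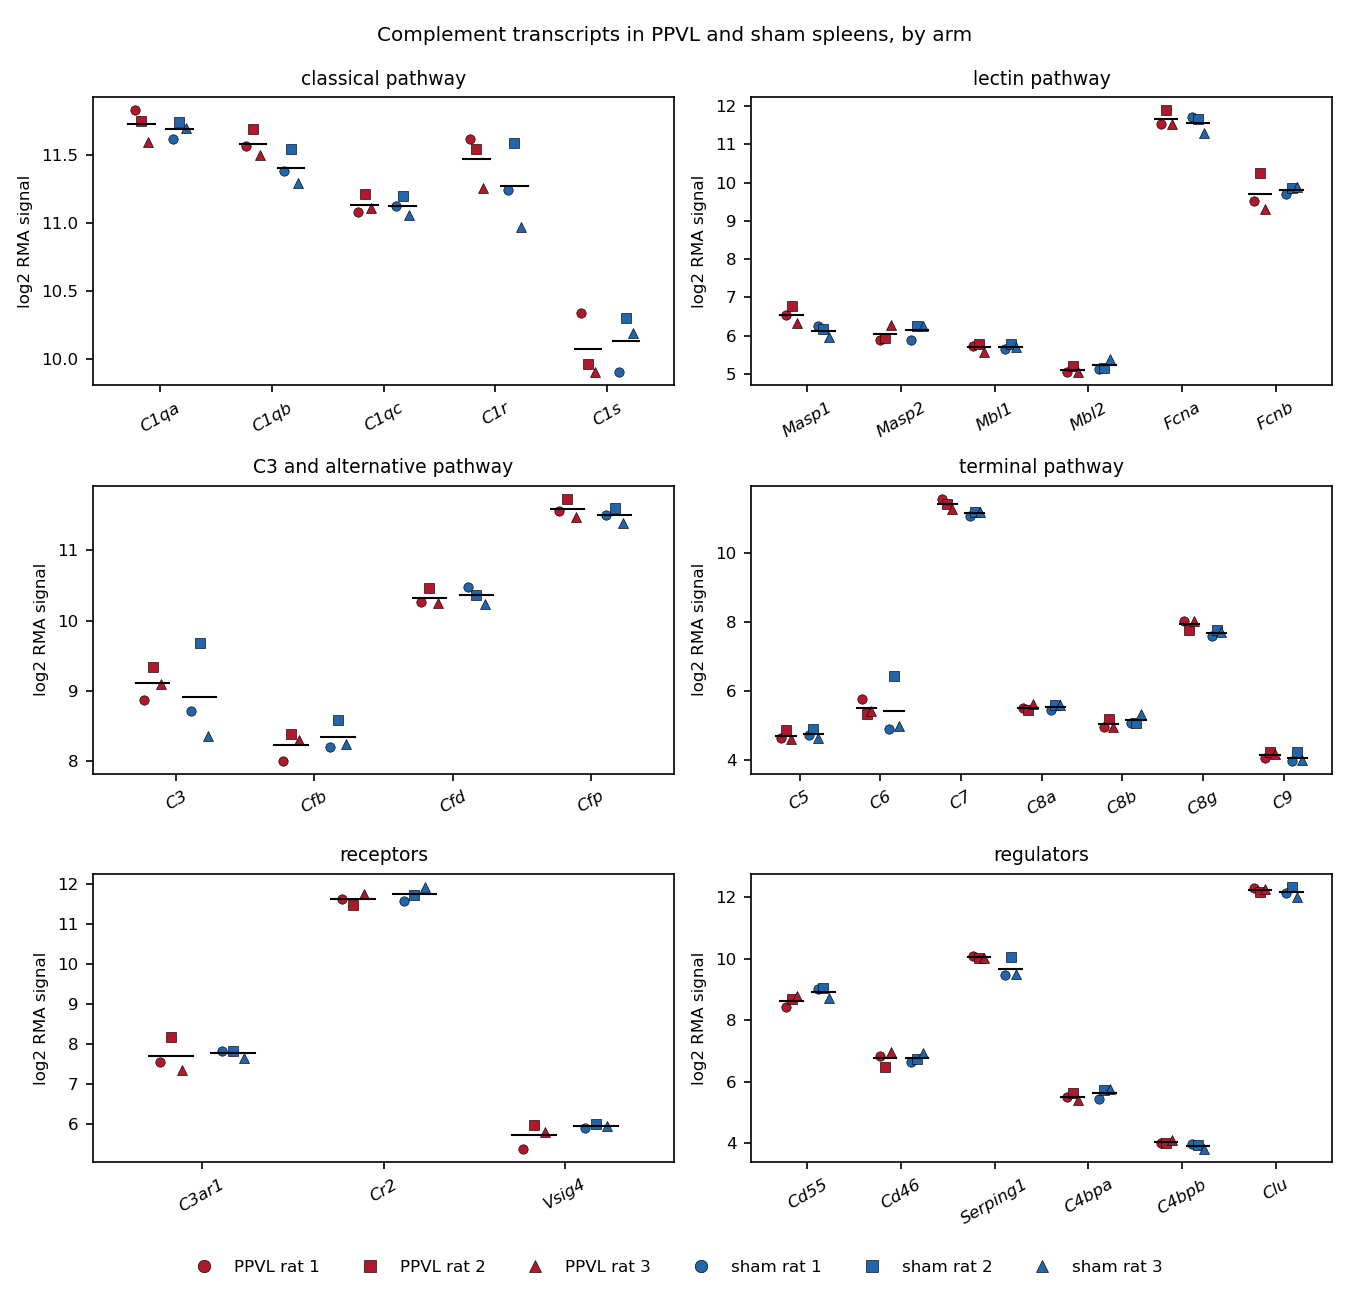
Log2 RMA signal (y axis) of the 31 complement genes in each rat, in panels by arm, with PPVL rats in red on the left and sham rats in blue on the right of each gene, a symbol for each rat number and a bar at the group mean. Sham rat 2 lies apart from the other sham rats for C3, C6 and Serping1, at 9.68, 6.42 and 10.05, and the groups do not overlap for Masp1, C7, C8g and C4bpb.

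The genes were also grouped by a cell type that can make them. A gene can have several sources, and the liver makes most of the plasma proteins. The 6 genes placed with stromal cells, C1r, C1s, C3, C7, Serping1 and Clu, had a median log2 fold change of 0.20. Of these 6, 1 rose, which was C7, and 5 had a positive value. Over all genes 2.69% rose and 51.7% had a positive value. The mean log2 level of the 6 was 10.80, 10.74 and 10.64 in PPVL rats 1 to 3 and 10.43, 10.86 and 10.37 in sham rats 1 to 3, so that sham rat 2 lay above all PPVL rats. The median was 0.33 without sham rat 2 and 0.03 without sham rat 3. Over 8 genes of macrophages and other myeloid cells the median was 0.02, and 0 passed. Over 11 genes placed with the liver, without C1r, C1s, C3 and Serping1, it was -0.03, and 1 rose, which was C8g. Masp1, Cfb, Cfd, Cr2, Cd55 and Cd46 were placed in none of these groups. Among them Masp1, at 0.42, passed the threshold, and the others did not. Of 11 fibroblast markers in the same RNA, 4 rose, which were Col1a1, Col1a2, Col3a1 and Pdgfrb, and 0 fell (2.69% and 1.55% of all genes). Positive values were found for 9, while Fbln1 was at -0.20 and Pi16 at -0.08. The median log2 fold change of the 11 markers was 0.91, or 0.39 without PPVL rat 1, the highest rat for 9 of them. Their mean log2 level was 9.45, 8.42 and 8.34 in PPVL rats 1 to 3 and 7.88, 8.35 and 7.85 in sham rats 1 to 3. The part of fibroblasts in the complement values was not tested. Interferon-stimulated genes, measured because interferon is known to induce several complement genes, were lower in 16 of 17 cases (1.55% of all genes). Their median log2 fold change was -0.74. C1r, Serping1 and Cfb, which interferon can induce, had log2 fold changes of 0.20, 0.36 and -0.11 and did not pass. They are examples and not a full list of such genes. The part of interferon in the complement values was not tested.

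Sham rat 2 stood apart for several complement genes. It had the highest value of the 3 sham rats in 19 of the 31 genes (61.3%, against 30.4% of all genes), and the lowest value of all 6 rats in 0 of the 31 (14.4% of all genes). Its log2 signal exceeded the mean of the other sham rats by 1.49 for C6, 1.15 for C3, 0.56 for Serping1, 0.48 for C1r and 0.37 for Cfb. The difference was 0.08 for C1qa, 0.07 for C7 and 0.05 for Masp1. This was also the rat in which hepatocyte and mesothelial markers were highest. Vtn, a plasma protein of the liver that keeps the membrane attack complex in solution, was at 4.62 to 5.0 in PPVL spleens, against 5.89 in sham rat 2 and 4.72 and 4.92 in the other sham rats. The part of such tissue in the complement values of sham rat 2 was not tested.

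Without sham rat 2 the called genes differed. In limma, Serping1 had a log2 fold change of 0.55 (unadjusted p = 0.0011), C3 of 0.58 (0.021), C6 of 0.57 (0.010) and Masp1 of 0.44 (0.040), and these 4 passed the threshold while C7 and C8g did not. In that fit 2.97% of all genes were higher. Leaving out both PPVL rat 1 and sham rat 2, the arrays with pancreatic and with hepatocyte transcripts, gave 3 higher genes, Serping1 at 0.53, C3 at 0.69 and C6 at 0.45, where 1.45% of all genes were higher. None of Masp1, C7 and C8g passed in that setting, which was added after the data were seen and rests on 4 arrays. All 3 PPVL rats were at or above 8.87 for C3 and 5.32 for C6, while sham rats 1 and 3 were at or below 8.71 and 4.97. The C6 signals lay below the median of all clusters in every rat except sham rat 2.

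**Figure D3:**
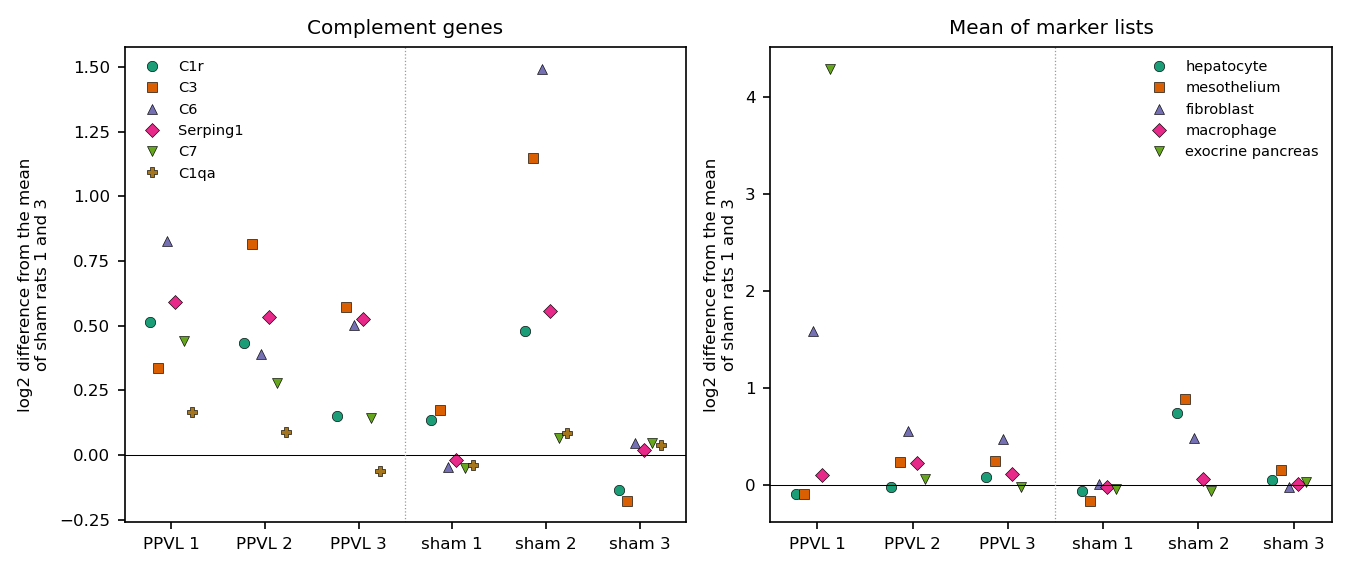
Difference of each rat from the mean of sham rats 1 and 3 (y axis, log2 units) for 6 complement genes (left) and for the mean level of 5 marker lists (right), with PPVL rats left of sham rats. Sham rat 2 lies at 1.49 for C6 and 1.15 for C3 and is the highest rat for the hepatocyte and mesothelial lists, and PPVL rat 1 is the highest for the exocrine pancreas and fibroblast lists.

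**Figure D4:**
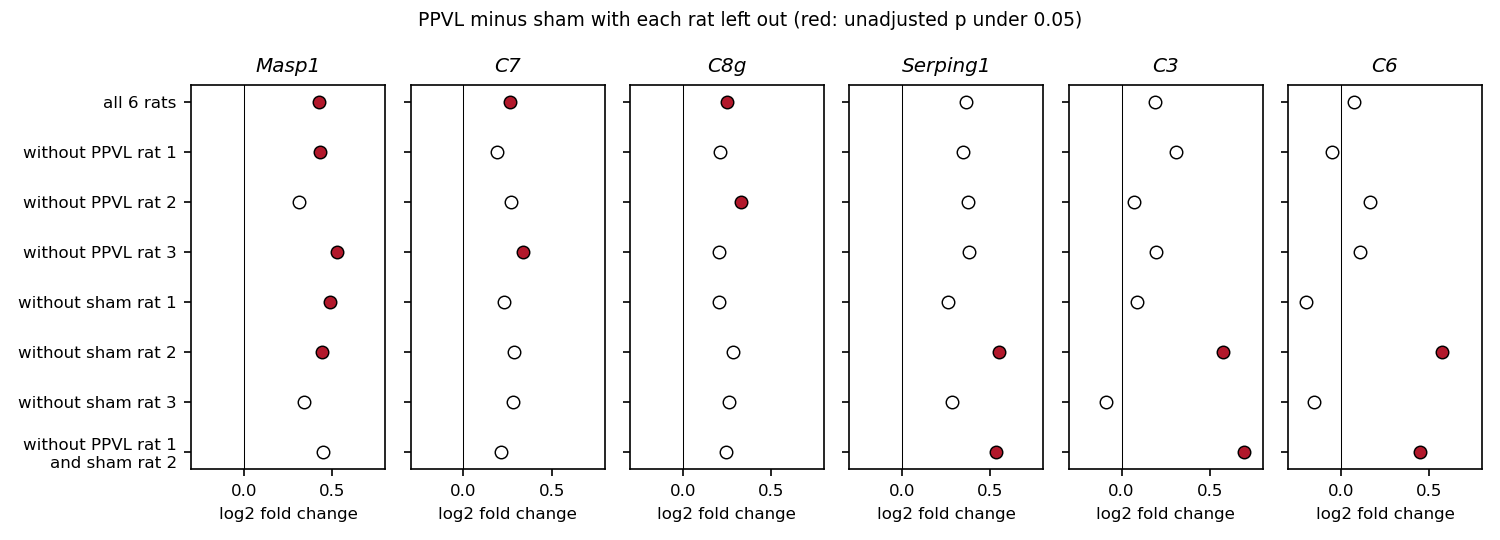
Log2 fold change, PPVL minus sham (x axis), of 6 complement genes with all rats, with each rat left out and with both PPVL rat 1 and sham rat 2 left out (rows), in red where the unadjusted p from limma was under 0.05. Masp1 is positive in every row shown, and C3, C6 and Serping1 are red only in the 2 rows without sham rat 2.

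Of 26 other measured genes around the cascade, 2 were higher and 2 lower (2.69% and 1.55% of all genes), and the median log2 fold change was -0.02. C1qtnf1, a secreted protein with a C1q-like domain that is not itself a complement component, was at 8.51, 8.63 and 8.69 in PPVL spleens and at 8.21, 8.27 and 8.13 in sham spleens. All PPVL rats lay above all sham rats, and the log2 fold change was 0.41 (standard error 0.09), with an unadjusted p = 0.0029 and an adjusted p = 0.913 from limma. Colec12, a scavenger receptor of the collectin family, was at 9.42, 9.43 and 9.34 in PPVL spleens and at 9.01, 9.13 and 9.19 in sham spleens, and its log2 fold change was 0.29 (standard error 0.09). Both passed the threshold in each of the 6 fits that left out 1 rat, and Colec12 did not pass without both PPVL rat 1 and sham rat 2. Colec10, a soluble collectin that binds MASP proteases, was at 5.53, 5.69 and 5.53 in PPVL spleens and at 5.94, 5.75 and 5.86 in sham spleens. Its log2 fold change was -0.27 (standard error 0.09). The mean signal of Colec10, 5.72, lay below the median of all clusters, and whether it stood above background is not known. Adam17, a sheddase of membrane receptors, was at 9.59, 9.51 and 9.46 in PPVL spleens and at 9.66, 9.73 and 9.76 in sham spleens, and its log2 fold change was -0.20 (standard error 0.08). For both genes all PPVL rats lay below all sham rats. Of the fits that left out 1 rat, Colec10 passed only in those without PPVL rat 2 or sham rat 2, and Adam17 did not pass in any of the 6 such fits. Cd59b, the name RefSeq now gives to the rat gene with the synonym Cd59, an inhibitor of the membrane attack complex, had a log2 fold change of -0.02. The leukocyte integrin chains of complement receptors, Itgam, Itgax and Itgb2, had 0.07, -0.37 and 0.06, and Cr1l, a membrane regulator of C3 convertases in rodents, had -0.07. None of these 5 passed.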

How the data were processed

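Spleen RNA of 3 PPVL and 3 sham-operated rats was measured on Affymetrix Rat Gene arrays, 1 array per rat. The authors made the deposited log2 values with RMA in Transcriptome Analysis Console. It has 36685 transcript clusters, lacks no value and carries no columns of the authors' own comparisons. Symbols came from the platform annotation. They were replaced by the RefSeq symbol where the gene identifier was in the RefSeq table of GRCr8, which held 18394 of the 18511 clusters with 1 symbol. The 575 clusters with several symbols and the 17599 without one named no gene. Each gene was represented by its cluster of highest mean over the 6 arrays.

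The comparison of PPVL with sham spleens used lmFit and eBayes of limma 3.58.1 (R 4.3.3) on all clusters, with no covariate, and called genes at a raw p below 0.05, the criterion in the study's methods. Adjusted p is Benjamini-Hochberg over all clusters. An exact permutation test of 3 against 3 rats cannot go below p = 0.1. All measured complement genes are named, and of the other complement genes those past the threshold. Values per rat are given for called genes, the C1q chains, C3 and the 4 genes of highest mean signal. Further genes given by rat or named were chosen after their values were seen. The genes, lists and tests were chosen with earlier results of these data known. The number of arrays limits the precision.

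Other settings tried were a block for the replicate number, leaving out each rat, a filter at the 40th percentile of mean level, a fit of clusters with 1 symbol only, a variance trend, a robust prior, array weights, quantile normalization, median centring and the mean of a gene's clusters. List medians with rats left out were added after the data were seen.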

Additional observations from a re-analysis of the deposited data

How the results depend on the processing

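The count of complement genes higher in PPVL spleens was 3 with all rats (2.69% of all genes). It was also 3 under the filter, the variance trend, the robust prior, array weights, quantile normalization and median centring. In these settings 2.35% to 3.23% of all genes were higher. It was 4 in the fit of clusters with 1 symbol and with the mean of clusters, where 3.55% and 3.53% of all genes were higher. It was 0 to 4 when 1 rat was left out, with 0 without sham rat 3, 1 when sham rat 1, PPVL rat 1 or PPVL rat 2 was the one left out, and 4 without sham rat 2, where 1.62% to 2.97% of all genes were higher. With both PPVL rat 1 and sham rat 2 left out it was 3, of other genes. The count of lower genes was 0 with all rats, 0 to 3 when 1 rat was left out, with 3 without PPVL rat 2 and 1 without sham rat 3, and 1 with array weights, which was Cd55 (0.925% to 2.77% of all genes with 1 rat left out and 1.95% with array weights). The median log2 fold change over the complement genes stayed between -0.04 and 0.07. Serping1 also passed with quantile normalization, with clusters of 1 symbol only and with the mean of clusters, and C7 did not pass with quantile normalization. The filter left 23 of the 31 genes tested.

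With the replicate number as a block, 1 complement gene was higher, Masp1, while C7 and C8g did not pass, and 0 were lower, where 2.34% of all genes were higher and 1.49% lower. The labels state no pairing of the rats. Deviations from the group mean of same-numbered rats correlated at -0.13, 0.14 and 0.12 over all clusters. PPVL rats 1 and 2 correlated best with sham rats of another number, and PPVL rat 3 with sham rat 3. With 3 rats in each group, these correlations cannot decide whether the rats were paired.

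C3, Fcnb and Cfb were at 0.19, -0.13 and -0.11 with all rats. For these and for genes nearer 0 the sign of the log2 fold change depended on single rats. With 1 rat left out it ran from -0.015 to 0.10 for C1qa, -0.030 to 0.044 for C1qc, -0.20 to 0.025 for C1s, -0.088 to 0.58 for C3, -0.32 to 0.092 for C3ar1, -0.11 to 0.028 for C5, -0.20 to 0.57 for C6, -0.076 to 0.0086 for C8a, -0.10 to 0.14 for Cd46, -0.19 to 0.0098 for Cfb, -0.10 to 0.027 for Cfd, -0.040 to 0.17 for Fcna, -0.40 to 0.069 for Fcnb and -0.060 to 0.051 for Mbl1. Array weights turned C1qc to -0.016 and C6 to -0.085, and quantile normalization turned Cd46 to -0.0026. With both PPVL rat 1 and sham rat 2 left out, Masp2 was 0.031, Mbl1 0.0061, Cfb 0.12, C5 0.058, C8a 0.0057, C3ar1 0.035 and Cd46 -0.053. The cause of these changes was not tested.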
